A study of Mus musculus with 59 samples.

Results

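Normal mouse cortex was compared with 4 other regions of the same brains, the cerebellum, brainstem, hippocampus, and striatum. The material is the 4 WT cortex libraries out of 59 libraries in the series, read against 4 WT libraries of each other region, 20 libraries in all. A gene was called regional when it differed from all 4 other regions in the same direction at an adjusted p under 0.05. Of 21479 genes tested, 403 were regional: 182 (0.847%) were lower in cortex and the rest (1.03% of genes tested) were higher. Genes on the X and Y chromosomes were left out, because 1 cortex library disagrees with its mouse there.

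The study compared WT mice with mice that carry an expanded CAG repeat in Atxn1, and the WT animals were its controls. The WT mice used here (whose cortex libraries are labelled WT-CTX-70, WT-CTX-77, WT-CTX-220, and WT-CTX-221, with CB, BS, hipp, or STR in place of CTX for the other regions) are C57BL/6 by the labels, were 10 weeks old, carry no Atxn1 mutation, and received no treatment that the labels name. Each library is polyA RNA from 1 region of 1 mouse, so the 5 regions of a mouse are paired. The mutant mice, used only for a second look at the genes found, are of 2 genotypes at the same age and strain: Atxn1 154Q/2Q, with the expanded repeat in 1 allele, and Atxn1 154Q[V591A;S602D]/2Q (154Q-AXH), whose expanded allele also has substitutions that disrupt the binding of ATXN1 to CIC.

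The cerebral cortex arises from the dorsal telencephalon, the pallium, together with the hippocampus, whereas most neurons of the striatum come from the subpallium and those of the cerebellum and brainstem from the hindbrain. Its excitatory neurons use glutamate and lie in layers, and transcription factors such as TBR1, FEZF2, and LHX2 set and hold their identities. Its inhibitory interneurons migrate in from the subpallium and are told apart by peptides such as somatostatin. Neuronal firing induces a fast set of genes, among them Fos, in all of these cells. The libraries hold whole tissue, so fewer cells of a type and less RNA per cell cannot be told apart in any value that follows.

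Tbr1, the T-box factor of early-born cortical projection neurons, was the marker for the label. Its level in cortex was 139.5, 127, 133, and 139 CPM (counts per 1e6, TMM-scaled) in WT-CTX-70, WT-CTX-77, WT-CTX-220, and WT-CTX-221, the mouse order used for 4 values throughout. In the cerebellum its range was 0.729 to 0.841 CPM and in the brainstem 0.279 to 1.13 CPM, so the cortex label holds against both. Hippocampal libraries held 77.5, 42.9, 58.2, and 51.1 CPM, and Tbr1 was higher in cortex (log2 fold change 1.23 ± 0.25, adjusted p = 0.00031; errors of log2 fold changes are SE throughout). In the striatum the values were 123, 131, 46.3, and 124 CPM, and cortex was not called different (log2 fold change 0.35 ± 0.25, adjusted p = 0.39). Libraries WT-STR-70, WT-STR-77, and WT-STR-221 thus lie close to the cortex and library 220 far below them. Tbr1 was therefore not regional by the rule.

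The striatal libraries stand apart from each other in the same way over whole marker lists. The summed level of 16 striatal markers was 3441, 2658, 8523, and 2678 CPM in the striatum, and between 335 and 427 CPM in cortex. The 20 genes of pallial excitatory neurons summed to 8310.1, 8599, 5231, and 8935 CPM in the striatum and to 8561 to 10473 CPM in cortex. A pallial gene stood at a median of 85.2%, 88.9%, 40.6%, and 94.1% of its cortical mean in the 4 striatal libraries. Drd2, a dopamine receptor of striatal projection neurons, was at 105, 71.3, 268, and 73.0 CPM in the striatum and 1.24, 1.57, 2.37, and 4.24 CPM in cortex. So 3 striatal libraries carried cortical transcripts near the cortical level, with striatal markers still above every other region. How much tissue next to the striatum they hold was not tested. The results are given below with all 4 striatal libraries, and again with library 220 as the only one.

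**Figure D1:**
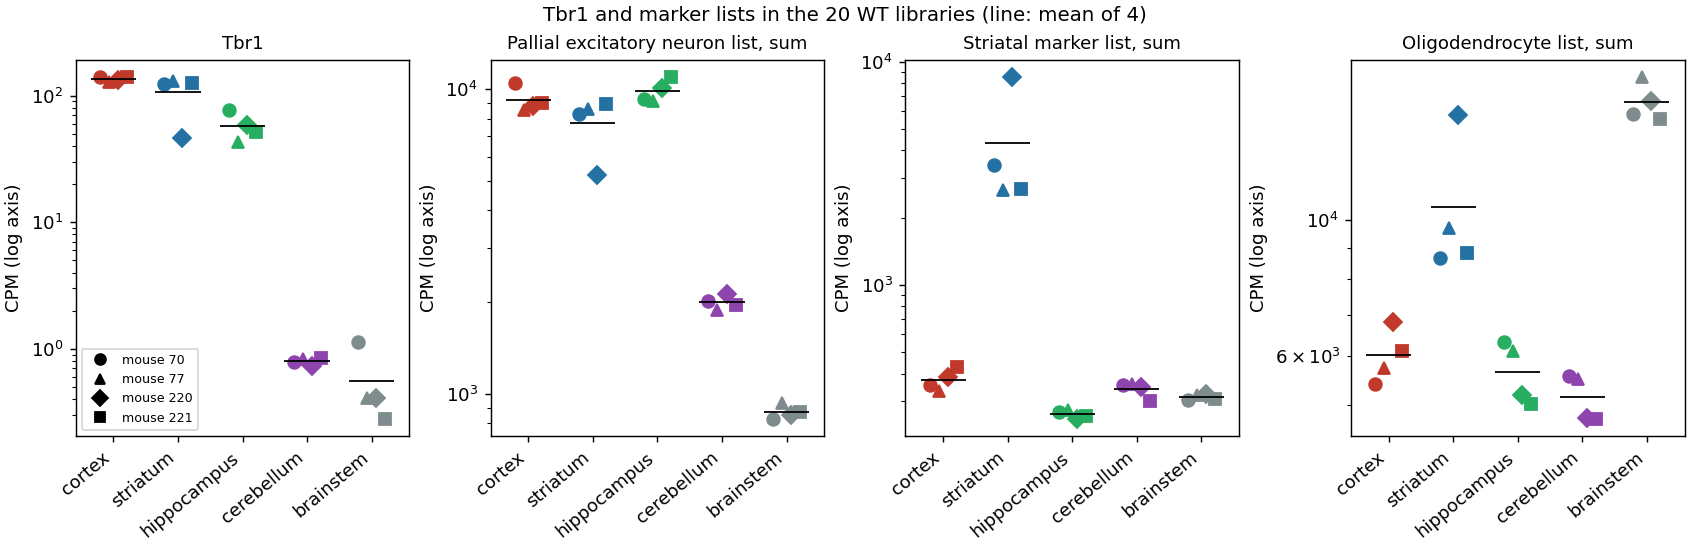
Levels (CPM, log axis) of Tbr1 and the summed levels of 3 marker lists in each of the 20 WT libraries, by region, with a symbol for each mouse and a line at the mean of 4. Striatal library 220 has the highest striatal sum (8523 CPM) and the lowest Tbr1 of the striatum, while the other 3 striatal libraries lie near the cortex for Tbr1.

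Other libraries stand apart in smaller ways. Cortical library WT-CTX-221 had 469 CPM of Xist and 0.895 CPM of the Y-linked gene Ddx3y, against 5.96 and 72.6 CPM in the striatum of the same mouse, so it goes against its label as to the animal. Cortical library 70 held 8.90 CPM of Dsp, a marker of hippocampal granule cells, and the other 3 held 0.344 to 1.41 CPM. Its 10 hippocampal markers were at a median of 15.8% of their hippocampal mean, against 5.65% to 7.48% in the other cortex libraries. Cortex and striatum libraries had 33.0 to 54.7 M counted read pairs (M for 1e6) and the other 3 regions 64.4 to 112 M. They also differ together from the others in the share of pairs on overlapping genes (5.17% to 5.32% against 4.44% to 4.80%). The noncoding RNA Gm26917 was at 116 to 144 CPM in cortex and 114 to 229 CPM in the striatum, but at 6.27 to 10.6 CPM in the hippocampus, 9.44 to 12.9 CPM in the cerebellum, and 3.84 to 5.31 CPM in the brainstem. In the contrasts of cortex with cerebellum, brainstem, or hippocampus, region and this difference between library sets cannot be told apart, whereas cortex and striatum lie within one set.

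Single contrasts differed in their number of calls. Against the cerebellum 7230 genes were higher in cortex (33.7%) and 7855 lower (36.6%), and against the brainstem 6765 (31.5%) and 7207 (33.6%). The hippocampus gave 5707 higher (26.6%) and 6170 lower (28.7%). Against the striatum 849 genes were higher (3.95%) and 1471 lower (6.85%), but 401 and 779 without striatal library 220 and 3205 and 3721 with that library alone. That contrast held the smallest difference for 115 of the regional genes that were higher (52.0%) and for 74 of those that were lower (40.7%), and the hippocampus for 59 (26.7%) and 59 (32.4%). Without the striatum the rule would have taken 3025 genes as higher (14.1%) and 2730 as lower (12.7%). Of these, 2633 and 2499 were not called against the striatum, and 171 and 49 were called there in the other direction.

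Most regional differences were modest. The smallest of the 4 log2 fold changes had a median of 0.54 over the higher genes and -0.41 over the lower ones, and it reached 2.10 and -4.13. In 37 genes cortex was at least 2-fold higher than every other region (0.172% of genes tested), and in 25 at least 2-fold lower (0.116%). The 4 cortex libraries lay above all 16 others for 159 of the higher genes (71.9%), and below all 16 for 132 of the lower ones (72.5%). Over all genes tested this was so for 319 genes (1.49%) and 246 genes (1.15%). The counts depend on the fit and on single libraries. Fits of only the 8 libraries of each contrast gave 66 higher and 69 lower genes, 19 and 8 of them at 2-fold or more. The number of higher genes fell to 136, 137, and 108 without cortical library WT-CTX-220, WT-CTX-77, or WT-CTX-221, and to 123 without striatal library 220. The 182 fell to 99, 109, 114, and 119 without cortical library WT-CTX-70, WT-CTX-77, WT-CTX-220, or WT-CTX-221, and to 104 without striatal library 220.

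The higher genes with the largest differences encode a mixed group of receptors, transcription factors, and secreted or structural proteins. The 12 taken by the rule, 11 of which are described here, had the largest smallest difference among those with no overlap between cortex and any other library and at least 1 CPM in cortex. Slc23a3, of the ascorbate transporter family (chr1:75125541-75133890, GRCm38), was at 1.36, 3.34, 2.44, and 2.60 CPM in cortex. Its striatal values were 0.73, 0.588, 0.216, and 1.07 CPM and its hippocampal values 1.07, 0.19, 0.295, and 0.143 CPM, with at most 0.0665 CPM in the cerebellum and brainstem. Every cortex library lay above every other, and the nearest region was the striatum (log2 fold change 2.01 ± 0.44, adjusted p = 0.0037).

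Receptors and a peptidase of peptide signalling were among them. Qrfpr, the receptor of the neuropeptide QRFP, had 2.20, 4.76, 4.81, and 4.34 CPM in cortex and its next highest region was the striatum, with 1.97, 1.31, 0.706, and 1.44 CPM (log2 fold change 1.63 ± 0.32, adjusted p = 0.0023). Library 70 was the lowest in cortex for Qrfpr and library 70 of the hippocampus the highest there, at 2.09 CPM. Glp2r, the receptor of glucagon-like peptide 2, was at 4.67, 8.57, 6.63, and 5.73 CPM in cortex and 3.21, 2.68, 3.20, and 1.94 CPM in the hippocampus (log2 fold change 1.23 ± 0.24, adjusted p = 0.00021). Dpp4, a membrane serine peptidase that trims peptide hormones, had 8.32, 8.96, 7.504, and 10.2 CPM in cortex and 3.84, 5.52, 1.41, and 5.54 CPM in the striatum (log2 fold change 1.16 ± 0.27, adjusted p = 0.0088). Striatal library 220 was again the lowest striatal library for all 3 of these genes.

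Myoc, which encodes the secreted protein myocilin, was at 32.6, 40.2, 53.1, and 42.1 CPM in cortex, and its nearest region was the brainstem with 15.5, 19.3, 19.2, and 17.9 CPM (log2 fold change 1.23 ± 0.25, adjusted p = 0.00023). Tnnt2, known as the cardiac troponin T, was at 8.53, 11.02, 11.3, and 9.94 CPM in cortex and 4.55, 5.32, 4.25, and 6.58 CPM in the striatum (log2 fold change 1.00 ± 0.22, adjusted p = 0.0051).

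The 12 also held DNA-binding factors at low levels. Dmrt2, a DM-domain factor, had 2.38, 2.48, 2.81, and 2.20 CPM in cortex against 1.23, 0.722, 1.21, and 0.833 CPM in the hippocampus (log2 fold change 1.33 ± 0.28, adjusted p = 0.00043). The zinc finger genes Osr1 and Zfp648 were at 2.32, 4.62, 4.05, and 3.31 and 2.50, 3.58, 3.41, and 3.78 CPM in cortex. For Osr1 the nearest region was the hippocampus (log2 fold change 1.04 ± 0.23, adjusted p = 0.00068), and for Zfp648 the striatum (log2 fold change 1.22 ± 0.36, adjusted p = 0.035). The noncoding transcript B230216N24Rik was at 10.7 to 13.2 CPM in cortex and at most 9.60 CPM elsewhere, but its span overlaps Pam. Olfr316 belongs to the olfactory receptors, a family of similar genes whose reads can be split, and was at 1.89 to 3.33 CPM in cortex and 0.758 to 1.65 CPM in the striatum.

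**Figure D2:**
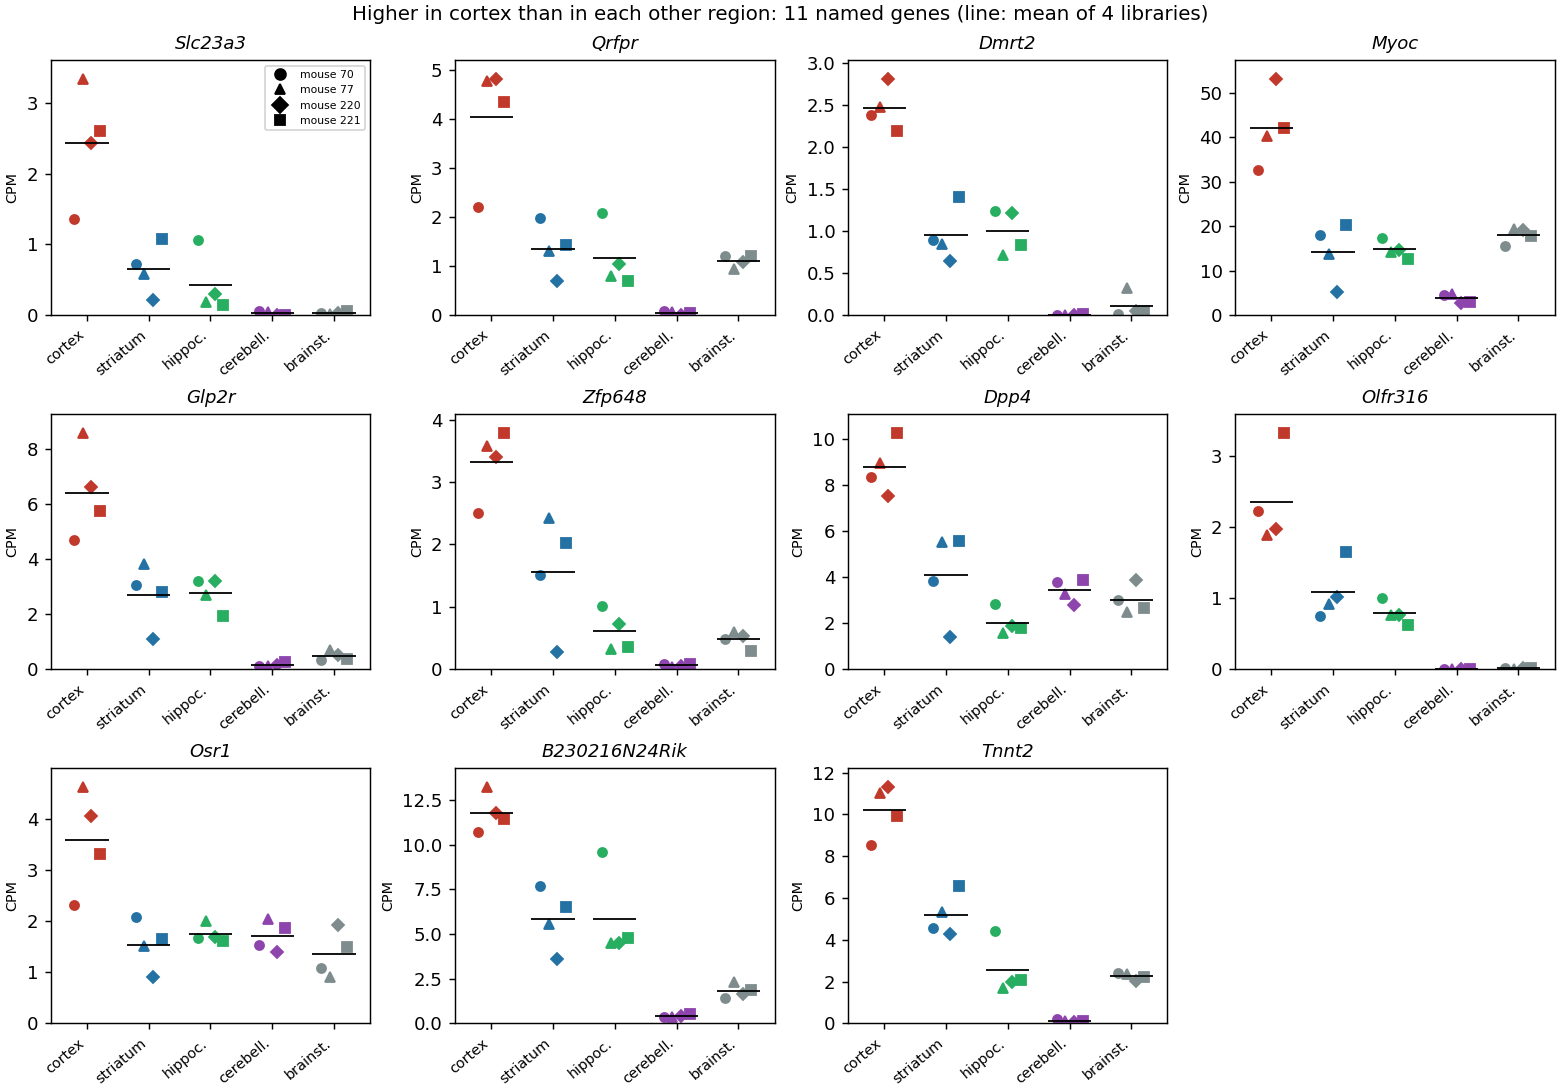
Levels (CPM, linear axis from 0) of 11 named genes that were higher in cortex, in each WT library by region, with a symbol for each mouse and a line at the mean of 4 libraries. The 4 cortex libraries lie above the 16 others in each panel, as the rule that chose these genes requires. Striatal library 220 is the lowest striatal library in most panels.

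The lower genes named here are the 12 with the largest smallest difference among those with no overlap and at least 1 CPM in every other region, first of them Tmem212, Ccdc187, and Gm34776. For Tmem212, a transmembrane protein gene, the cortex libraries had 0.362, 0.246, 0.668, and 0.833 CPM, the brainstem 1.48, 1.28, 1.44, and 1.503 CPM, and the hippocampus 2.76, 4.47, 2.64, and 1.90 CPM. All 4 cortex libraries lay below all others (log2 fold change -1.41 ± 0.53, adjusted p = 0.027 against the nearest region, the brainstem). Ccdc187, a coiled-coil protein gene, was at 2.11, 1.84, 2.65, and 3.53 CPM in cortex and 6.63, 8.51, 5.47, and 5.28 CPM in the cerebellum (log2 fold change -1.35 ± 0.29, adjusted p = 0.00029). In the striatum Ccdc187 was at 14.5, 11.4, 24.8, and 8.85 CPM, with library 220 the highest. The lincRNA Gm34776 was below 1 CPM in every cortex library and at 9.82 to 10.7 CPM in the brainstem.

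Spef2, whose protein is part of motile cilia and the sperm tail (chr15:9578193-9748868), was at 1.24, 0.982, 1.20, and 1.31 CPM in cortex and 6.85, 10.8, 8.99, and 8.70 CPM in the hippocampus, and the striatum was nearest (log2 fold change -1.14 ± 0.34, adjusted p = 0.038). Onecut2, a homeodomain factor, was at 2.29, 1.33, 1.86, and 1.74 CPM in cortex and 4.42, 2.77, 4.98, and 4.41 CPM in the cerebellum, its nearest region (log2 fold change -1.21 ± 0.27, adjusted p = 0.0005). Strip2, a subunit of a phosphatase complex, was at 35.3, 22.1, 18.3, and 32.0 CPM in cortex, 53.7, 71.1, 59.4, and 62.9 CPM in the hippocampus (log2 fold change -1.20 ± 0.23, adjusted p = 0.00017), and 234 to 241 CPM in the cerebellum. P2ry1, an ADP receptor, was at 1.42, 1.28, 1.82, and 1.26 CPM in cortex and 19.4, 19.3, 20.4, and 18.8 CPM in the brainstem. Its nearest region was the hippocampus, with 3.13, 3.13, 2.36, and 2.27 CPM (log2 fold change -0.92 ± 0.37, adjusted p = 0.042). The regional call of P2ry1 was lost under 17 of 32 alternative analyses.

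Pik3c2b, a class II PI 3-kinase, was among the steadiest, with 10.3, 9.67, 12.1, and 10.5 CPM in cortex and 19.9, 15.9, 26.0, and 19.1 CPM in the striatum (log2 fold change -0.93 ± 0.12, adjusted p = 3.3e-05). Pik3c2b, Strip2, and Onecut2 were the 3 of 41 named regional genes that kept their call under all 32 alternatives. Synpo2, an actin-binding protein gene, was at 2.96 to 5.02 CPM in cortex and 6.47 to 11.1 CPM in the hippocampus (log2 fold change -0.92 ± 0.25, adjusted p = 0.004). The transporter gene Slco5a1 (1.33 to 1.75 CPM in cortex, 2.39 to 4.02 CPM in the striatum) and the DNA helicase gene Ddx11 (0.513 to 1.04 and 1.37 to 1.91 CPM in cortex and hippocampus) were lower in cortex as well. Hist1h2be, a histone gene of a family with near-identical copies, was at 2.78 to 4.74 CPM in cortex and 4.99 to 10.7 CPM in the striatum, and its counts are uncertain for that reason.

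**Figure D3:**
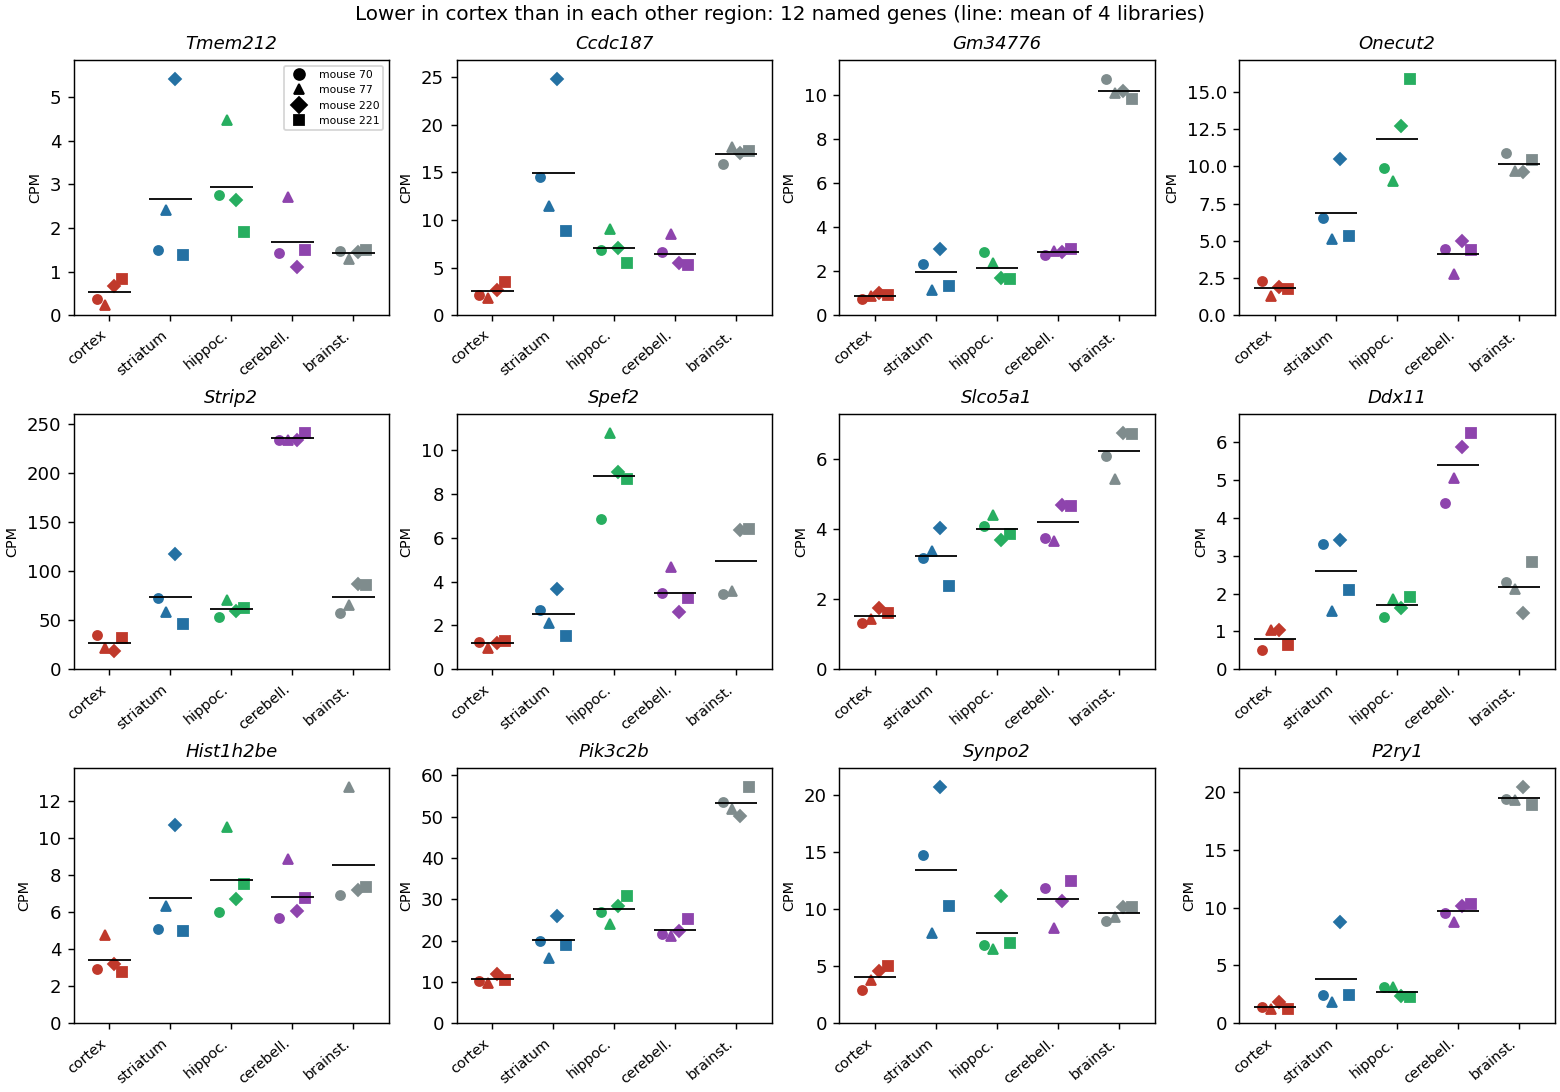
Levels (CPM, linear axis from 0) of the 12 named genes that were lower in cortex, in each WT library by region, with a symbol for each mouse and a line at the mean of 4 libraries. The 4 cortex libraries lie below the 16 others in each panel, as the rule that chose these genes requires.

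Pallial excitatory neuron genes differed more between cortex and the cerebellum or brainstem than between cortex and the hippocampus or striatum. Of 20 pallial genes, 17 were higher and 2 lower in cortex than in the cerebellum (median log2 fold change 4.38, against -0.05 over all genes tested). All 20 were higher than in the brainstem (4.86). Over all genes 33.7% and 31.5% were higher than in these regions. Against the hippocampus 6 were higher (26.6% of all genes) and 10 lower (28.7%), with a median of -0.21. In WT-STR-70, WT-STR-77, and WT-STR-221 a pallial gene stood at a median of 85.2%, 88.9%, and 94.1% of its cortical mean. Against the striatum with these libraries included, 2 were higher (3.95% of all genes) and 1 lower (6.85%), with a median of 0.36. Only Lhx2, a LIM homeodomain factor needed for the cortex to form, was regional. It was at 96.4, 80.4, 95.7, and 87.6 CPM in cortex, 63.6, 58.6, 51.2, and 76.9 CPM in the striatum, and 60.9, 56.0, 60.03, and 62.7 CPM in the hippocampus (log2 fold change 0.53 ± 0.11, adjusted p = 0.0032 against the striatum). Among the 5 genes with the level pattern most like that of Tbr1 over the 20 libraries were Tmem121b (Pearson r = 0.994 on log2 CPM), Stk25 (0.992), Cdk5r1 (0.991), and Cacnb3 (0.990). These correlations describe 20 libraries that share mice and library sets.

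Of the 20 upper layer genes 14 were higher and 4 lower in cortex than in the cerebellum, and 10 and 2 than in the brainstem. Against the hippocampus 9 were higher and 4 lower, and against the striatum 2 and 1. Of 9 layer 4 genes 6, 5, 7, and 1 were higher in the same order of regions, and 2, 1, 0, and 0 lower. Over all genes 33.7%, 31.5%, 26.6%, and 3.95% were higher, and 36.6%, 33.6%, 28.7%, and 6.85% lower. Of 18 layer 5 genes 3 were regional and higher and 0 lower, beside 1.03% and 0.847% of all genes. They were Fezf2, the zinc finger factor that specifies subcortical projection neurons, Ldb2, a LIM domain-binding cofactor, and Tox, an HMG-box factor. Fezf2 was at 45.0, 60.2, 61.6, and 57.7 CPM in cortex, 36.8, 37.3, 45.8, and 38.3 CPM in the hippocampus (log2 fold change 0.51 ± 0.19, adjusted p = 0.03), and 31.8, 37.1, 16.4, and 42.4 CPM in the striatum (log2 fold change 0.83 ± 0.20, adjusted p = 0.0093). In the cerebellum and brainstem Fezf2 was at most 0.111 CPM. Ldb2 was at 49.9, 53.6, 62.9, and 67.2 CPM in cortex and 37.3, 34.2, 43.3, and 35.2 CPM in the hippocampus (log2 fold change 0.64 ± 0.11, adjusted p = 8.9e-05). Tox was at 21.4, 18.98, 22.7, and 24.0 CPM in cortex and 12.6, 13, 8.33, and 17.3 CPM in the striatum (log2 fold change 0.78 ± 0.15, adjusted p = 0.0025). Of 21 genes of layer 6 and the subplate only Osr1 was regional, of 20 upper layer genes only Lhx2, and of 9 layer 4 genes none. Asked of the cerebellum, brainstem, and hippocampus alone, the rule took 7 layer 5 genes, 7 of layer 6, 4 of the upper layers, and 3 of layer 4 as higher, against 14.1% of all genes. Cux2, an upper layer factor, was at 112, 102, 106, and 109 CPM in cortex and 87.9, 84.3, 21.4, and 81.4 CPM in the striatum (log2 fold change 0.64 ± 0.29, adjusted p = 0.17 against all 4 libraries).

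Of 36 inhibitory interneuron genes 2 were regional, both higher, beside 1.03% of all genes. Cort encodes cortistatin, a peptide close to somatostatin that a subset of cortical interneurons makes. Cort was at 7.60, 10.9, 9.05, and 9.59 CPM in cortex, 6.52, 6.83, 4.55, and 6.40 CPM in the striatum, and 6.33, 6.28, 4.69, and 4.86 CPM in the hippocampus, with all cortex libraries above all others (log2 fold change 0.63 ± 0.15, adjusted p = 0.012 against the striatum). Its relative Sst was not regional. Against striatal library 220 alone, with no test, the log2 fold changes were 1.03 for Cort and -0.46 for Sst. Sst was at 195, 199, 208.6, and 218.3 CPM in cortex and 179, 199, 282, and 234 CPM in the striatum (log2 fold change -0.12 ± 0.12, adjusted p = 0.54), although it was higher in cortex than in the hippocampus (log2 fold change 0.40 ± 0.12, adjusted p = 0.0074), brainstem (log2 fold change 1.73 ± 0.12, adjusted p = 1.3e-10), and cerebellum (log2 fold change 7.06 ± 0.16, adjusted p = 3e-18). Satb1, a chromatin organizer of interneurons that other neurons use too, was at 126, 141, 163, and 158 CPM in cortex and 116, 73.6, 102, and 94.8 CPM in the hippocampus (log2 fold change 0.61 ± 0.21, adjusted p = 0.018). For Satb1 the libraries nearest to the cortex were library 77 of the striatum with 118 CPM and library 70 of the hippocampus with 116 CPM.

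Of 30 activity-induced genes, 28 were higher than in the cerebellum (33.7% of all genes) and 27 than in the brainstem (31.5%). Against the hippocampus 21 were higher (26.6%) and against the striatum 8 (3.95%). In that order of regions 1, 3, 2, and 0 were lower, beside 36.6%, 33.6%, 28.7%, and 6.85% of all genes. Fos, Fosb, and Ier2 were regional, 3 of 30 beside 1.03% of all genes, and their calls were lost under 16, 5, and 9 of 32 alternatives. Fos, a subunit of the AP-1 factor, was at 44.4, 54.0, 67.2, and 74.2 CPM in cortex, 26.97, 25.9, 27.6, and 41.8 CPM in the striatum (log2 fold change 0.98 ± 0.30, adjusted p = 0.044), and 30.1, 8.93, 15.1, and 10.8 CPM in the hippocampus. Fosb, its paralog, was at 20.4, 30.5, 31.4, and 33.0 CPM in cortex and 14.9, 13, 19.6, and 17.7 CPM in the striatum (log2 fold change 0.82 ± 0.21, adjusted p = 0.017). Ier2, an immediate early nuclear protein gene, was at 16.7, 13.2, 21.5, and 23.7 CPM in cortex and 17.4, 8.98, 13.6, and 12.4 CPM in the cerebellum (log2 fold change 0.53 ± 0.21, adjusted p = 0.033), where the groups overlap. Against striatal library 220 alone the log2 fold changes were 1.12 ± 0.51 for Fos and 0.56 ± 0.33 for Fosb, with larger errors. They are given as a description with no test.

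Receptor genes gave few regional members. Neither the 12 GABA-A receptor genes nor the 40 receptors of serotonin, acetylcholine, dopamine, noradrenaline, and other modulators held a regional gene, and of the 40, 30 were higher in cortex than in the cerebellum (33.7% of all genes). Against the brainstem 18 of the 40 were higher (31.5% of all genes) and 18 lower (33.6%). Against the hippocampus 18 were higher (26.6%) and 6 lower (28.7%), and against the striatum 3 (3.95%) and 11 (6.85%). Among 43 transcription factors that pattern the brain, Lhx2 was higher and Irx5, an Iroquois factor of the hindbrain, lower. Irx5 was at 0 to 0.115 CPM in cortex, at 0.208 to 0.408 CPM in the hippocampus, and at 4.45 to 5.13 CPM in the brainstem. The cortex libraries held at most 5 read pairs of Irx5 each. Of the 43 factors 33 were lower in cortex than in the brainstem (33.6% of all genes) and 20 than in the cerebellum (36.6%).

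Oligodendrocytes make the myelin of the brain. Of 20 oligodendrocyte genes 3 were regional, all lower, beside 0.847% of all genes: Ermn, a myelin cytoskeletal protein gene, Ugt8a, the enzyme of galactocerebroside synthesis, and Enpp6, a choline phosphodiesterase of newly formed oligodendrocytes. Ermn was at 51.6, 49.1, 76.8, and 61.5 CPM in cortex, 92.7, 79.5, 92.7, and 86.3 CPM in the hippocampus (log2 fold change -0.55 ± 0.14, adjusted p = 0.0029), 93.2, 81.5, 148, and 102 CPM in the striatum, and 284 to 336 CPM in the brainstem. Ugt8a was at 46.6, 45.0, 66.7, and 62.5 CPM in cortex and 91.2, 71.3, 82.7, and 77.2 CPM in the hippocampus (log2 fold change -0.55 ± 0.13, adjusted p = 0.0016). Enpp6 was at 9.08, 10.3, 12.3, and 13.04 CPM in cortex and 14.7, 12.3, 14.1, and 14 CPM in the hippocampus (log2 fold change -0.29 ± 0.12, adjusted p = 0.041), and its call was lost under 16 of 32 alternatives. Of the 20 genes, 16 were lower in cortex than in the striatum and 16 than in the brainstem, against 6.85% and 33.6% of all genes. Against the hippocampus 4 were lower (28.7% of all genes) and against the cerebellum 4 (36.6%). In the other direction 9 of the 20 were higher in cortex than in the cerebellum (33.7% of all genes) and 3 than in the hippocampus (26.6%). The summed level of the list was 5407 to 6811 CPM in cortex, 8665 to 9702 CPM in WT-STR-70, WT-STR-77, and WT-STR-221, and 14764 CPM in striatal library 220. It was 14562 to 17033 CPM in the brainstem, but 4749 to 5586 CPM in the cerebellum and 5018 to 6338 CPM in the hippocampus, which overlap the cortex.

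All 15 microglial genes were higher in cortex than in the cerebellum (33.7% of all genes) and brainstem (31.5%). Against the hippocampus 9 were higher (26.6%) and 2 lower (28.7%), and against the striatum 0 higher (3.95%) and 1 lower (6.85%). None of them was regional, and none of 17 astrocyte genes. Of 19 vascular genes only Pdgfrb, a receptor of pericytes, was regional, with 23.6, 23.4, 23.8, and 26.9 CPM in cortex and 19.1, 22.4, 18.9, and 20.4 CPM in the striatum (log2 fold change 0.28 ± 0.07, adjusted p = 0.016). Of 12 meningeal genes 9 were higher in cortex than in the striatum (3.95% of all genes) and 6 than in the hippocampus (26.6%). Against the brainstem 3 were higher (31.5%) and against the cerebellum 0 (33.7%). The meningeal list summed to 107 to 171 CPM in cortex and 47.4 to 70.8 CPM in the striatum. None of 14 choroid plexus genes was called against the striatum, and Ttr, their main product, was at 870.2, 78.8, 201, and 877 CPM in cortex, with WT-CTX-70 and WT-CTX-221 far above WT-CTX-77. Adamts4, a protease that cuts matrix proteoglycans, was the one regional gene of 18 perineuronal net and matrix genes, at 26.6, 28.8, 34.1, and 34.4 CPM in cortex and 38.5, 37.8, 36.8, and 36.5 CPM in the hippocampus (log2 fold change -0.27 ± 0.07, adjusted p = 0.0033). The span of Adamts4 overlaps that of another gene.

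**Figure D4:**
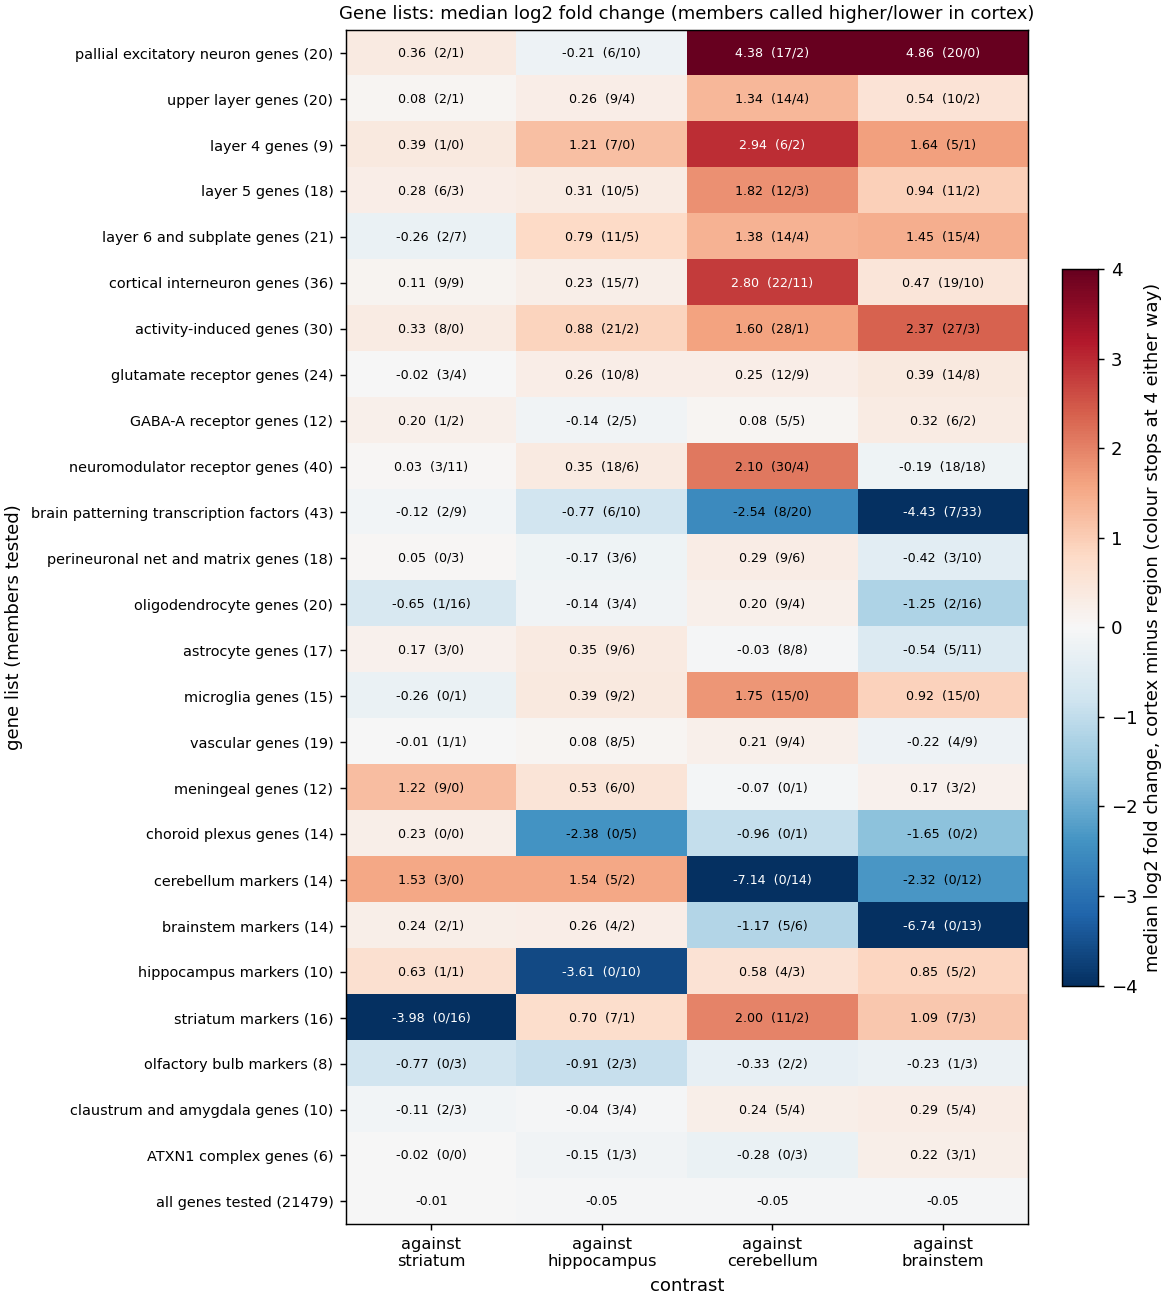
Median log2 fold change of cortex minus each other region (colour, which stops at 4 either way) for each gene list, with the number of members called higher and lower in cortex in parentheses; the last row gives all genes tested. The lists of region markers are at their lowest against their own region, and against the striatum the striatal markers are farthest from 0 (-3.98).

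Atxn1 and the genes of its nuclear partners were not regional. Atxn1 itself was at 45.9, 48.7, 53.3, and 50.2 CPM in cortex and 79.9, 65.2, 77.8, and 83.7 CPM in the hippocampus, where it was higher (log2 fold change -0.63 ± 0.12, adjusted p = 0.00016), and it was higher in cortex than in the brainstem (log2 fold change 0.47 ± 0.12, adjusted p = 0.002). Cic, the repressor that ATXN1 binds, was at 194, 172, 178, and 186 CPM in cortex and higher than in the brainstem (log2 fold change 0.66 ± 0.10, adjusted p = 6.3e-06) and hippocampus (log2 fold change 0.39 ± 0.10, adjusted p = 0.002). Zkscan1 was lower in cortex than in the cerebellum (log2 fold change -1.06 ± 0.08, adjusted p = 5.2e-10), brainstem (log2 fold change -0.88 ± 0.08, adjusted p = 1.1e-08), and hippocampus (log2 fold change -0.83 ± 0.08, adjusted p = 7.6e-08), but not called against the striatum (log2 fold change 0.18 ± 0.08, adjusted p = 0.19). Atxn1l, the paralog of Atxn1, was lower in cortex than in the cerebellum (log2 fold change -0.48 ± 0.08, adjusted p = 1e-05) and hippocampus (log2 fold change -0.27 ± 0.08, adjusted p = 0.0052). Rfx1 was called only against the brainstem (log2 fold change 1.03 ± 0.08, adjusted p = 5.2e-10) and Zbtb5 only against the cerebellum (log2 fold change -0.59 ± 0.06, adjusted p = 5.6e-08). Against striatal library 220 alone the log2 fold changes were -0.45 for Atxn1, 0.51 for Cic, and 0.38 for Zkscan1. They were -0.05 for Atxn1l, -0.18 for Rfx1, and -0.04 for Zbtb5, all given as a description with no test.

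Promoters of the regional genes were read from RefSeq (GRCm38.p6, 250 bases before to 50 after the start site), which had 162 of 220 symbols of the higher and 141 of 182 of the lower genes. The motifs searched, on both strands, were AGGTGTGA (T-box), CAGATGG (a NEUROD E-box), ATTTGCAT (POU octamer), and the MEF2 site, none of which contains another. A gene was counted once when any of its promoter windows held the motif. The E-box stood in 10 higher genes (6.17%), 7 lower genes (4.96%), and 681 of the 13676 genes tested that had a promoter (4.98%). The T-box motif stood in 3 (1.85%), 3 (2.13%), and 143 (1.05%). The octamer stood in 0 higher genes, 5 lower genes (3.55%), and 220 of all (1.61%), and the MEF2 motif in 0, 1 (0.709%), and 30 (0.219%). The promoters below are printed as examples: Fezf2 and Fos, higher in cortex, which hold none of these motifs, and Synpo2 and Ermn, lower in cortex, which hold the MEF2 motif and the octamer (capitals). They do not stand for their directions, as other higher genes hold the E-box or the T-box motif and most lower genes hold none. A match describes letters in the window and is no sign that a factor binds there.
Fezf2 promoter, chr14:12345816-12346115, minus strand: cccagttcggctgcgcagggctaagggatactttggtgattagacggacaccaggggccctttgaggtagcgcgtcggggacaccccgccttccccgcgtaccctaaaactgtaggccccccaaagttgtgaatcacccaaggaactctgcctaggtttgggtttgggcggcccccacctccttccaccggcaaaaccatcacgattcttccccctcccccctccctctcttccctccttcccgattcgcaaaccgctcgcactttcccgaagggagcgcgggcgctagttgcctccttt
Fos promoter, chr12:85473640-85473939, plus strand: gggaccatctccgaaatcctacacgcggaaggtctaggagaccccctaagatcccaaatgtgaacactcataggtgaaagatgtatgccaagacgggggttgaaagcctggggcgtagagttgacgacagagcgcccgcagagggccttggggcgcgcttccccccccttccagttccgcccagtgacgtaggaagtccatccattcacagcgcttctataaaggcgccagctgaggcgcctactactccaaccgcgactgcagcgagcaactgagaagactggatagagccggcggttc
Synpo2 promoter, chr3:123236100-123236399, minus strand: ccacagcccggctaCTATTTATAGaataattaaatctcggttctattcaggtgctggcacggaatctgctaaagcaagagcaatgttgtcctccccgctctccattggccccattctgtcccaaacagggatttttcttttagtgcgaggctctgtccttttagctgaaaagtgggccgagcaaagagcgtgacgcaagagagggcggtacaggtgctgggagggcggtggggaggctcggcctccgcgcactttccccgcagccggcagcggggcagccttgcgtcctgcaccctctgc
Ermn promoter, chr2:58052815-58053114, minus strand: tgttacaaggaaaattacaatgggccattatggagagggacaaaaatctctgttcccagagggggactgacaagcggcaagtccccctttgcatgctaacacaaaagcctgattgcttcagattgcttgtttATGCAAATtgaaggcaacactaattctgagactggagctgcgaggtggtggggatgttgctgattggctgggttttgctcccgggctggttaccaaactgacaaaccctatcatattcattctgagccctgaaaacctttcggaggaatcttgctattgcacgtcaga

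With striatal library 220 as the only one of its region, 875 genes were higher in cortex (3.68% of 23773 tested) and 465 lower (1.96%), and 203 of the higher (91.9%) and 172 of the lower regional genes above (94.5%) were among them. At 2-fold or more it was 199 genes (0.837%) and 60 genes (0.252%). This fit rests on 1 striatal library that is assumed to vary like the other regions. Library 220 stands apart by its low pallial transcripts, so what follows on such genes is a description with no test. Of the 20 pallial genes 7 were regional, and of the layer lists 4 of the upper layers, 2 of layer 4, 6 of layer 5, and 3 of layer 6, all higher, and 6 of the 36 interneuron genes were higher and 1 lower. The 8 genes with the largest smallest difference in this fit among those of at least 5 CPM in cortex included Tgm3, Igfn1, A830009L08Rik, Pdzrn3, Ovol2, Wnt10a, and C730002L08Rik, chosen after their values were seen.

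Tgm3, a transglutaminase, was at 6.94, 4.71, 5.09, and 6.26 CPM in cortex and 3.90, 4.44, 0.667, and 4.01 CPM in the striatum, where library 220 alone was low (log2 fold change 0.89 ± 0.35, adjusted p = 0.11 against all 4). Pdzrn3, a ubiquitin ligase with PDZ domains, was at 54.2, 49.5, 50.3, and 57.3 CPM in cortex and 33.5, 38.9, 10.2, and 34.9 CPM in the striatum (log2 fold change 0.86 ± 0.27, adjusted p = 0.048 against all 4), so it was regional with all 4 libraries too, a call lost under 17 of 32 alternatives. Wnt10a, a secreted WNT ligand, was at 16.7, 12.4, 17.7, and 16.7 CPM in cortex, 3.70, 1.69, 2.41, and 2.32 CPM in the hippocampus, and 12.1, 13.3, 3.71, and 14.8 CPM in the striatum. Ovol2, a zinc finger factor, was at 15.6, 11.5, 10.2, and 12.5 CPM in cortex and at most 0.0738 CPM in the cerebellum and brainstem. Igfn1, a muscle filament protein gene, was at 34.6, 33.7, 32.8, and 43.6 CPM in cortex and 12.6, 3.70, 1.83, and 2.41 CPM in the hippocampus, with library 70 the highest there. Slc17a7, the vesicular glutamate transporter of cortical neurons, was at 1816, 1594, 1569, and 1634 CPM in cortex and 1443, 1484, 497, and 1558 CPM in the striatum (log2 fold change 0.41 ± 0.21, adjusted p = 0.22 against all 4).

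The mutant mice gave a second set of libraries that the rule had not used. In Atxn1 154Q/2Q mice 81 of the 219 higher genes that could be tested were regional in the same direction (37.0%), against 0.900% of all genes there, and 45 of 181 lower genes (24.9%), against 0.344%. In 154Q-AXH mice, with 3 brainstem libraries in place of 4, it was 50 higher genes (22.9%, against 0.515%) and 19 of 180 (10.6%, against 0.193%). No gene was regional in the opposite direction in either genotype. Fewest genes were called against the striatum, in 154Q mice 86 of the 219 higher and 53 of the 181 lower ones. Against the hippocampus it was 196 and 165. In 154Q-AXH mice the striatum gave 66 and 40 and the hippocampus 175 and 100. The same direction in all 4 contrasts, called or not, was seen for 206 of 219 (94.1%) and 168 of 181 (92.8%) genes in 154Q mice, and for 203 (93.1%) and 158 of 180 (87.8%) in 154Q-AXH mice. Among genes that pointed one way in all 4 WT contrasts but were not regional, 67.3% of the higher and 53.9% of the lower ones did so again in 154Q mice, and 64.4% and 55.7% in 154Q-AXH mice. The hippocampal library 154Q-76 held 633 CPM of 14 summed brainstem markers, where the other 3 libraries of its group held 32.4 to 43.3 CPM, and without it 108 of 219 and 74 of 181 were regional in 154Q mice, against 1.29% and 0.613% of all genes.

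Of the 12 higher genes taken by the rule 7 were regional in 154Q mice and 6 in 154Q-AXH mice, and all 12 kept their direction in all 4 contrasts of both. Myoc, Dpp4, Olfr316, and B230216N24Rik were regional in 154Q-AXH mice, and also in 154Q mice without hippocampal library 154Q-76. Of the 12 lower genes 5 and 3 were regional and 11 kept their direction in both. Onecut2 was the exception, with 2 of 4 contrasts in the WT direction in 154Q mice and 3 of 4 in 154Q-AXH mice. Tbr1 pointed to higher levels in cortex in all 4 contrasts of both genotypes. The mutant mice share the regions, dissection, and library sets of the WT mice, so these counts repeat the measurement and do not separate region from library set. Mutant striatal libraries also carried pallial transcripts. In 154Q mice the 20 pallial genes summed to 6279 to 6856 CPM in the striatum and 7090 to 7826 CPM in cortex. In 154Q-AXH mice the sums were 4245 to 7533 CPM and 7398 to 7861 CPM. Striatal markers summed to 1014 to 1796 CPM in 154Q striatum and 912 to 5021 CPM in 154Q-AXH striatum. How far this lowered the share of genes found again was not tested.

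**Figure D5:**
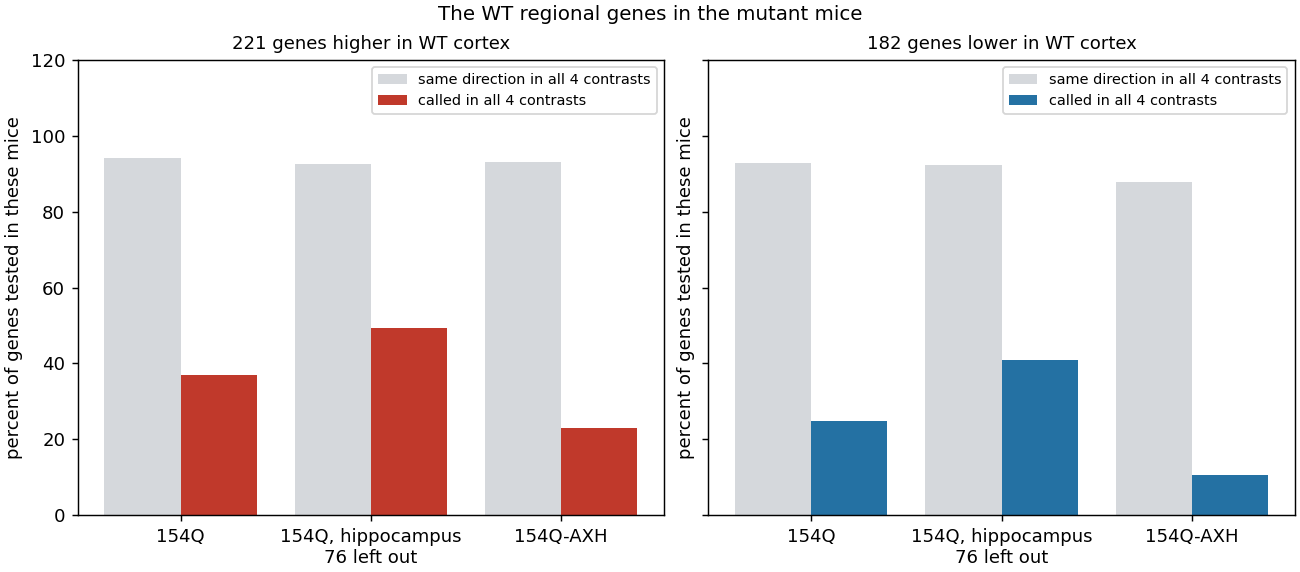
Percent of the genes higher (left) and the 182 genes lower (right) in WT cortex that pointed the same way in all 4 contrasts (grey bars) or were also called in all 4 (coloured bars), in 154Q mice, in 154Q mice without hippocampal library 154Q-76, and in 154Q-AXH mice. Grey bars lie between 87.8% and 94.1%, and coloured bars between 10.6% and 49.3%.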

How the data were processed

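The deposited files hold read pair counts per gene, 1 file a library, neither normalized nor pooled. Upstream of them the authors used Trimmomatic 0.36 for trimming and STAR 2.7.2d for alignment and counting, on GRCm38.p6 and GENCODE M18. Counts without regard to strand were used, because the first strand held 49.0% to 50.1% of stranded counts. Depth was 35.6 to 46.2 M counted pairs per cortex library (M for 1e6) and 33.0 to 112 M over the 20 WT libraries. Of 54232 mouse genes, 54165 had a position in GENCODE M21 (GRCm38) and 4184 lay on X or Y. The 4 summary lines and 1 human transgene line were left out.

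Genes were kept by filterByExpr, scaled by TMM, and fitted in 1 model of 5 regions with edgeR 4.0.16 in R 4.3.3 (glmQLFit, legacy=FALSE; glmQLFTest), with Benjamini-Hochberg adjustment over all 21479 genes. SEs were derived from each gene's F statistic and its log2 fold change. Library sizes for CPM were TMM-scaled; log2 CPM had a prior count of 2. The fit was tested on simulated data.

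Groups and mouse numbers come from the labels. By the labels, libraries with the same number come from the same mouse, and library WT-CTX-221 goes against this in its X and Y genes. Their deviations from the group means correlated at -0.04 to 0.16 with the cortex library of that mouse, and the main fit had no mouse term. Cortex replicates differed by 9.19 to 19.4 times sampling noise (chi-square per degree of freedom), so none is a repeat. Named genes are Tbr1, the 12 higher and 12 lower genes of the rule in the text (lower genes at 1 CPM or more in every other region), up to 4 higher and 4 lower regional members of each list, members of lists of 6 or fewer genes, Sst, Cort, Ttr, Xist, and Ddx3y. Cux2, Slc17a7, Drd2, Dsp, Gabra6, and Gm26917 were chosen after their values were seen. Tgm3, Igfn1, Pdzrn3, Ovol2, and Wnt10a likewise came from the fit with striatal library 220 alone. Some genes that these rules take are not reported here. The members and lists were chosen with earlier results of these data known. Alternatives were DESeq2 1.42.0, DESeq2 size factors, no filter, fits of 8 libraries, a mouse block, X and Y genes kept, first-strand counts, thinning, mice of 1 number series, each library left out, and, added after seeing the data, striatal library 220 alone and the rule without the striatum.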

Additional observations from a re-analysis of the deposited data

Results flagged for a closer look

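Of 115 groups of 4 libraries examined (named genes and summed lists), 10 had a library far from the other 3. Chance gives about 1 group in 20 when groups are independent. These groups share libraries and some of their genes were chosen after their values were seen, so the rate is no test. In cortex, library WT-CTX-221 was the highest for Xist at 469 CPM, Igfn1 at 43.6 CPM, and Pdgfrb at 26.9 CPM. Cortical library 70 was the highest for the hippocampal marker Dsp at 8.90 CPM, and cortical library 77 for Gabra6, a receptor subunit of cerebellar granule cells, at 5.82 CPM. In the striatum, library 220 was the lowest for the summed pallial excitatory neuron genes at 5231 CPM. The same library was the highest for the summed striatal markers at 8523 CPM, oligodendrocyte genes at 14764 CPM, and olfactory bulb markers at 24.0 CPM. Striatal library 70 was the highest for the summed choroid plexus genes at 1565 CPM. The human transgene line, used in no comparison, held 2 to 7 counts in the WT cortex libraries and 0 to 52 over all WT libraries.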

How the results depend on the processing

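The 6 counts of the contrasts with cerebellum, brainstem, and hippocampus stayed within 1.5 times under the alternatives run, and the counts that involve the striatum did not. Of 1311 values of the 41 named regional genes under 32 alternatives, 1121 kept the regional call, 190 kept the direction without the call, and 0 turned. Of 1664 called contrasts of the other named genes, 1657 stayed called. The mouse as replicate block gave 231 higher and 211 lower regional genes, of which 206 and 172 were regional without it, and changed no call of a named gene. Leaving out 1 library gave 108 to 310 higher and 99 to 226 lower regional genes, 16 to 58 and 7 to 32 at 2-fold or more, and 401 to 1180 higher and 779 to 1777 lower genes against the striatum. The 37 genes became 16 without striatal library WT-STR-220 and 58 without WT-STR-221, and the 25 became 7 without striatal library 220 and 12 without cortical library 70 or 77. The 849 genes higher than in the striatum became 549, 464, and 548 without cortical library WT-CTX-220, WT-CTX-221, or WT-CTX-77 and 401 without striatal library 220, and the 1471 lower became 779 without the last. Leave-one-out counts were 6971 to 7688 and 7108 to 8130 (cerebellum), 6424 to 7150 and 6815 to 7472 (brainstem), and 5300 to 6194 and 5380 to 6541 (hippocampus).

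Counts are given next as regional higher and lower, then at 2-fold or more, then against the striatum. Only the 8 libraries of each contrast gave 66 and 69, 19 and 8, and 226 and 544. Only mice 70 and 77 gave 12 and 50, 3 and 6, and 84 and 331, and only the other two mice gave 34 and 17, 17 and 3, and 189 and 468, with fewer samples. Striatal library 220 alone gave 875 and 465, 199 and 60, and 3205 and 3721, and without cortical library WT-CTX-221 as well 774 and 395, 177 and 55, and 2848 and 3437. The rule without the striatum gave 3025 and 2730, and 790 and 621 at 2-fold or more. DESeq2 gave 315 and 235 regional genes, 48 lower genes at 2-fold or more, and 1443 higher than in the striatum. Leaving out hippocampal library 154Q-76 raised the lower genes found again in 154Q mice from 45 to 74. The cause of these shifts was not tested beyond fewer samples. The motif shares of the genes at 2-fold or more were 0% for all motifs, over 25 and 13 genes with a promoter. Depth limits genes such as Irx5, with 0 to 5 read pairs in a cortex library.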
